A study of Arabidopsis thaliana with 6 samples.

Results

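The mitochondrial genome of Arabidopsis thaliana was followed through 143 of its loci, out of 33602 gene models counted in all. They are all models with the prefix ATMG except the 3 mitochondrial rRNA loci. This rule uses no measured value, though it was set with earlier results of these data known. They comprise 24 models of respiratory genes or gene parts, 7 of ribosomal protein genes, 5 of cytochrome c maturation genes and 2 other named protein genes, 20 transfer RNA models and 85 unnamed open reading frames. Models outside the named classes were taken as transfer RNAs by the reference annotation or by a length of at most 100 bases, and every remaining model counts as an unnamed reading frame. Of the 143, 140 passed the filter on low counts, and the reading frames ATMG00750, ATMG00850 and ATMG01300 did not. Total RNA of young rosette leaves was depleted of rRNA and sequenced in 3 groups of 2 libraries. The libraries labelled FLV border came from the white leaf border of the T-DNA line salk_139995, an flv/dot4 mutant in the labels. The libraries labelled WT border came from the green leaf border of col0, and those labelled WT centre from the leaf centre of col0. All plants were at Boyes stage 1.13 on soil, with 18 to 21 °C and light of up to 90 µE, and the mutant is represented by a single insertion line. Nothing in the labels says that the 2 libraries of a group are separate plants, so that the p-values below measure only the spread between these libraries.

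Plant mitochondrial DNA codes for subunits of the respiratory chain and the ATP synthase, for some ribosomal proteins and transfer RNAs, and for proteins that attach haem to cytochrome c. Most other mitochondrial proteins, including the RNA polymerases and the pentatricopeptide repeat proteins that edit and splice mitochondrial transcripts, are coded in the nucleus and imported. Transcription starts at many places and runs far past the genes, so that RNA also covers reading frames of no known function, and much of the control of transcript levels lies in RNA processing and decay. The gene behind flv/dot4, DOT4 (AT4G18750), makes one of these pentatricopeptide repeat proteins, which acts in editing of a plastid transcript.

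The libraries held 20448315 to 33214552 counts, of which 184727 to 636502 fell on the mitochondrial loci. DOT4 had 502 and 616 counts in the libraries labelled FLV border, 18 and 52 in the WT border and 5 and 6 in the WT centre. Between FLV border and WT border this was a log2 fold change of 3.29 ± 0.66 (SE, edgeR adjusted p = 0.322). The counts thus show no loss of reads on the DOT4 model in the T-DNA line. They do not place reads relative to the insertion, and whether the transcript is intact was not tested. Every direction below therefore belongs to the libraries as labelled. The 6 green leaf markers were found in every library and summed to 4848 and 10554 CPM in the FLV border, 23176 and 35213 CPM in the WT border, and 32436 and 127528 CPM in the WT centre. The 12 markers of phloem, xylem, epidermis, guard cells and dividing cells were also found in every library and summed to 371 to 491 CPM in the FLV border, 438 to 444 CPM in the WT border and 197 to 259 CPM in the WT centre. Their median was 11.0 and 11.1 CPM in the FLV border, 6.80 and 7.76 CPM in the WT border, and 3.68 and 1.78 CPM in the WT centre. CPM are counts per 1000000 of the library size scaled by trimmed means (TMM), and mitochondrial CPM are counts per 1000000 counts of the 143 loci. Library 1 of the WT centre stood apart, with 32.7% of its counts on nuclear and plastid models of at most 300 bases, against 7.76 to 15.0% in the other 5 libraries. Of the mitochondrial loci with at least 50 counts, 35 of 84 differed by more than 2-fold between the WT centre libraries within mitochondrial counts, against 13 of 127 in the FLV border and 13 of 104 in the WT border. Counts of calls, class medians and some of the calls that rest on WT centre are given with and without that library.

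Levels per length ran over orders of magnitude. In mitochondrial CPM per kilobase, as a mean over all libraries, the respiratory models had a median of 26479 and none lay below 1000. The ribosomal protein genes had a median of 6568, the cytochrome c maturation genes 4500 and the transfer RNA models 4056. The unnamed reading frames had a median of 347, and 58 of the 85 lay below 1000. Of the 30 loci with the most counts per kilobase, 15 were respiratory, 9 unnamed reading frames, 4 transfer RNAs and 2 ribosomal protein genes. Among the respiratory models atp9 (ATMG01080), which codes for the ring subunit of the ATP synthase, came first, followed by nad5c (ATMG00060) and nad1c (ATMG00516), parts of split genes for complex I subunits. The 2 models ATMG00330 and ATMG00780, whose length of 88 bases fits only trnS(GCT) in the reference, had near-equal levels in each library, and how reads are divided between them is uncertain.

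A few reading frames carried most of the counts of their class, since the 3 with the most counts took 44.7 to 65.2% of them and the 10 with the most 82.8 to 89.3%. ATMG00030, of 324 bases, had the highest level per kilobase in the FLV border, ATMG00280 in the WT border and ATMG00360, a model of only 111 bases, in the WT centre. ATMG00030 had 356800 mitochondrial CPM per kilobase in the FLV border, 105175 in the WT border and 167314 in the WT centre, and ATMG00360 had 52856, 83631 and 337231 in the same groups. The reference lists 4 reading frames of 324 bases, and ATMG00030 could not be tied to one of them. The 26S, 18S and 5S mitochondrial rRNA loci themselves had 0 counts in every library, while the 15 rRNA loci of all genomes together had 4069 and 4253 counts in the FLV border, 13 and 234 in the WT border and 28 and 11 in the WT centre. ATMG00280, whose chromosome 2 copy AT2G07732 the reference describes as like the catalytic domain of the large Rubisco subunit, had 4.28 and 6.57 counts per 1000 counts of the plastid gene rbcL in the FLV border, 4.57 and 5.50 in the WT border and 3.49 and 5.07 in the WT centre. The ratio lay between 3.49 and 6.57 over all 6 libraries, while rbcL had 1277654 to 3781198 counts, and the share of plastid reads in them was not tested.

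Chromosome 2 of Arabidopsis carries a large insertion of mitochondrial DNA, and its 145 models from AT2G07660 to AT2G07840 had 593533 to 622823 counts in the FLV border, 298478 to 298991 in the WT border, and 494799 and 242451 in the WT centre. The reference notes pair 53 of the mitochondrial loci with such a copy. In 17 pairs of equal model length with at least 100 counts in the mitochondrial locus over the 6 libraries, the copy had 0.341 to 1.77 times the counts of the mitochondrial locus, with a median of 0.973. For atp8 (ATMG00480), a subunit of the ATP synthase, the copy AT2G07707 had 6093, 5157, 5936, 3732, 7488 and 5064 counts against 6249, 5170, 6079, 3620, 7318 and 5218 at the mitochondrial locus, in the order FLV border, WT border and WT centre. How reads matching both places were counted is not given in the sources used here, and levels of loci with and without a copy are not on equal terms.

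The mitochondrial loci took a larger share of all counts in the FLV border than in the WT border. They made up 2.04 and 2.23% of the counts without rRNA in the libraries labelled FLV border, against 0.963 and 1.01% in those labelled WT border. Means were 2.13 ± 0.134% in the FLV border and 0.989 ± 0.0358% in the WT border (SD, n = 2 libraries each), a ratio of 2.15. Exact 95% Clopper-Pearson intervals of single libraries were no wider than 2.22 to 2.23% and cover counting error only. The groups did not overlap, and the exact two-sided permutation p was 0.333, the smallest that 2 libraries against 2 allow. With TMM-scaled library sizes the log2 ratio was 0.56, against 1.11 with plain totals. Plastid loci took 12.8 and 24.2% of the counts in the FLV border and 24.2 and 31.4% in the WT border, and since a share depends on all other RNAs, their part in the difference was not tested. In such tissue pieces, a difference in the number of mitochondria-rich cells and a difference in RNA per cell cannot be told apart.

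The shares of the WT border and the WT centre differed by less than the spread between the WT centre libraries, with means of 0.989 ± 0.0358% in the WT border and 0.952 ± 0.560% in the WT centre (SD, n = 2 each, exact two-sided permutation p = 1). The WT centre libraries had 1.35 and 0.556% and enclosed both WT border libraries. Without library 1 of the WT centre the log2 ratio was 0.83, and without library 2 it was -0.45, and the direction turned with the library left out. With TMM-scaled library sizes the log2 ratio was -1.15, from 7871 and 8889 CPM in the WT border against 24476 and 12673 CPM in the WT centre, without overlap (exact two-sided permutation p = 0.333).

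**Figure D1:**
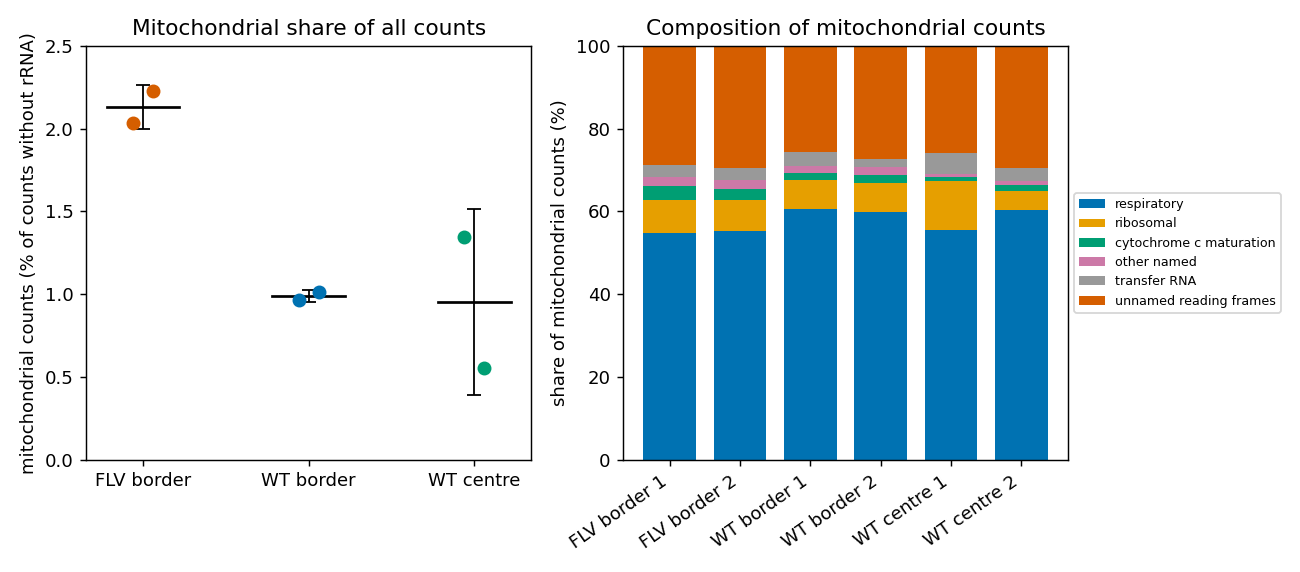
Left, mitochondrial counts as a percentage of all counts without rRNA in each library (points), with the mean and SD of each group. Right, the composition of the mitochondrial counts by class in each library; the FLV border libraries lie above 2% on the left, and respiratory genes make up 54.7 to 60.6% of every bar.

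Respiratory models and reading frames together made up most of the mitochondrial counts in every library. Respiratory models made up 54.7 and 55.3% in the FLV border, 60.6 and 59.8% in the WT border, and 55.6 and 60.4% in the WT centre. Unnamed reading frames made up 28.7 and 29.4% in the FLV border, 25.7 and 27.3% in the WT border, and 25.8 and 29.5% in the WT centre. The ratio of summed named genes to summed reading frames, as log2, averaged 1.23 ± 0.0387 in the FLV border and 1.42 ± 0.0650 in the WT border (SD, n = 2 each), a difference of -0.19 with an exact two-sided permutation p of 0.333. It turned to 0.07 once ATMG00030, ATMG00280 and ATMG00360 were left out. Between WT border and WT centre, at 1.42 ± 0.0650 and 1.31 ± 0.163 (SD, n = 2 each), the difference was 0.11 (exact two-sided permutation p = 0.667), and it was -0.36 without the same 3 reading frames. The cytochrome c maturation genes took 3.44 and 2.77% in the FLV border, 1.56 and 1.85% in the WT border and 0.998 and 1.60% in the WT centre. Those in the FLV border lay above all other libraries.

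In the FLV border, most mitochondrial loci stood higher than in the WT border when scaled to all counts, and none passed the test. Of the 140 loci that passed the filter on low counts, 117 had a positive fitted log2 fold change, with a median of 0.77 against 0.02 over all 21852 genes tested. Both FLV border libraries lay above both WT border libraries at 95 loci (67.9%), against 19.3% of all genes, and below at 7 (5%), against 18.7%. No locus was called by edgeR's quasi-likelihood test at a Benjamini-Hochberg adjusted p under 0.05, where 0.0595% of all genes were, 0.0549% as higher and 0.00458% as lower. At an unadjusted p under 0.05, 18 loci were higher (12.9%, against 2.97% of all genes) and 0 lower (against 2.57%), and DESeq2 called 1 locus, ccmFN2, with 0.888% of all genes called. By class, the median log2 fold change was 0.56 over 24 respiratory models, 0.91 over 7 ribosomal protein genes, 1.43 over 5 cytochrome c maturation genes, 0.88 over 82 reading frames and -0.07 over 20 transfer RNAs. Some reading frames passed the filter on low counts only through the FLV border libraries, since 62 passed it in the WT libraries alone. The counts and medians that include them are limited by this choice on both scales. With no filter, 78 of 85 reading frames were positive, with a median of 0.93 against 0.05 over all genes. Library totals without TMM moved the median of all genes to 0.56 and that of the mitochondrial loci to 1.32. Such a change of scaling shifts all genes alike, so the distance between the medians is no test of it.

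Within mitochondrial counts, the second scaling, each locus is set against the sum of the 143 loci. The median log2 fold change was then 0.00 over the respiratory models, 0.36 over the ribosomal protein genes, 0.87 over the cytochrome c maturation genes, 0.30 over the reading frames and -0.65 over the transfer RNAs, while all genes tested had a median of -0.54. Nothing was called on this scale, of mitochondrial loci or of all genes (0%), by the same edgeR test; 5 mitochondrial loci were higher (3.57%, against 1.23% of all genes) and 0 lower (against 6.21%) at an unadjusted p under 0.05. No other tool was run on this scale.

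**Figure D2:**
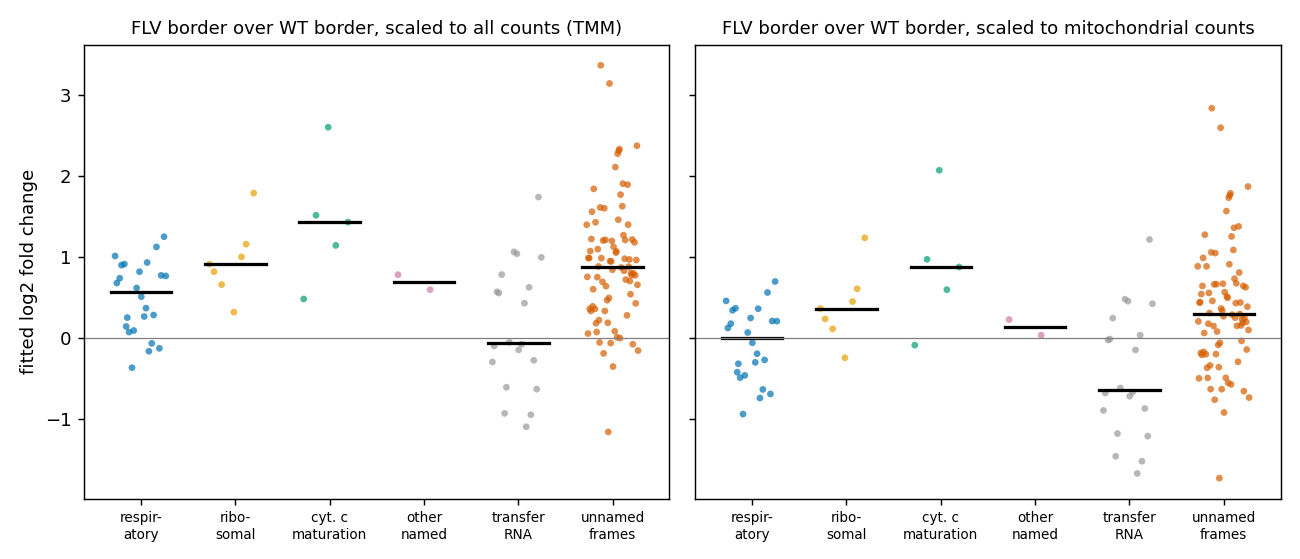
Fitted FLV border to WT border log2 fold change for the 140 tested mitochondrial loci by class, scaled to all counts (left) or to mitochondrial counts (right); points are loci and black lines class medians. No locus passed the threshold, and the class medians shift downward together between the panels, with cytochrome c maturation highest in both.

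Cytochrome c maturation genes code for the parts of a membrane machinery that carries haem to apocytochrome c. ccmFN2 (ATMG00960, also ccb203; TAIR10.1 mitochondrial genome, positions 291580 to 292191, plus strand) codes for a part of the split haem lyase subunit CcmFN. It had 108 and 96.9 CPM in the FLV border, 11.0 and 22.7 CPM in the WT border and 32.3 and 23.5 CPM in the WT centre. The FLV border libraries stood apart from all others, and the log2 fold change over the WT border was 2.60 ± 0.52 (SE, n = 2 each, edgeR adjusted p = 0.322). DESeq2 gave 2.58 with an adjusted p of 0.000736, and across the 15 settings the value ran between 2.17 and 3.20, with adjusted p between 0.000736 and 1. Within mitochondrial counts ccmFN2 had 9091 and 7536 mitochondrial CPM in the FLV border, 1401 and 2554 in the WT border and 1320 and 1857 in the WT centre, with a log2 fold change of 2.07 ± 0.61 (SE, edgeR adjusted p = 0.639). Its shorter chromosome 2 copy, AT2G07768, had 1199 and 902 counts in the FLV border, 94 and 142 in the WT border and 261 and 145 in the WT centre. Reads of the copy and the gene may be the same, so the copy is no separate evidence.

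The other part of this subunit, ccmFN1 (ATMG00830, ccb382; positions 316013 to 317161, plus strand), had 71.8 and 62.2 CPM in the FLV border, 18.8 and 28.1 CPM in the WT border and 6.30 and 9.74 CPM in the WT centre. The 3 groups did not overlap, and the FLV border to WT border log2 fold change was 1.51 ± 0.46 (SE, edgeR adjusted p = 0.630). ccmC (ATMG00900), a haem handling subunit, had 10.3 and 18.8 CPM in the FLV border and 3.72 and 7.08 CPM in the WT border, and its WT centre libraries, at 20.8 and 7.89 CPM, spanned the FLV border values. ccb452 (ATMG00180) had 191 and 145 CPM in the FLV border against 67.0 and 85.5 CPM in the WT border. ccmB (ATMG00110), a subunit of the membrane transporter, had 28.6 and 32.5 CPM in the FLV border against 22.4 and 21.4 CPM in the WT border. Within mitochondrial counts ccmB was the only one of the 5 with a negative fitted value, -0.09, and its groups overlapped.

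Ribosomal protein genes build the mitochondrial ribosome, and all 7 had both FLV border libraries above both WT border libraries when scaled to all counts, where 19.3% of all genes did. rps4 (ATMG00290) had 42.2 and 55.1 CPM in the FLV border, 10.8 and 17.4 CPM in the WT border and 10.6 and 1.92 CPM in the WT centre. Its FLV border to WT border log2 fold change was 1.79 ± 0.70 (SE, edgeR adjusted p = 0.836). rps3 (ATMG00090) had 290 and 324 CPM in the FLV border against 126 and 181 CPM in the WT border, and rpl16 (ATMG00080), which overlaps it by 134 bases on the same strand, had 141 and 140 CPM against 61.4 and 88.3 CPM. Within mitochondrial counts 4 of the 7 still had no overlap, rps4, rps3, rpl16 and rps7 (ATMG01270). On this scale 35.7% of the mitochondrial loci and 6.12% of all genes lay apart higher. rps12 (ATMG00980) overlapped, with 3407 and 2614 mitochondrial CPM in the FLV border against 3452 and 1675 in the WT border.

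Respiratory models lay on both sides in their share of the mitochondrial counts, without a call. Of nad7 (ATMG00510), a subunit of the matrix arm of complex I, there were 42084 and 55249 mitochondrial CPM in the FLV border against 24542 and 35558 in the WT border. Its log2 fold change was 0.70 ± 0.61 (SE, edgeR adjusted p = 0.738), and 1.25 ± 0.58 scaled to all counts (adjusted p = 0.925). nad5c (ATMG00060) and nad4 (ATMG00580), both of the membrane arm, likewise had both FLV border libraries higher, with 32723 and 40005 mitochondrial CPM for nad4 in the FLV border against 23556 and 25805 in the WT border. Lower in both FLV border libraries were atp8, with 10704 and 8123 mitochondrial CPM against 22116 and 14134 in the WT border, atp6-1 (ATMG00410), with 22926 and 24190 against 39163 and 34266, and cob (ATMG00220), the cytochrome b of complex III, with 7179 and 5972 against 11580 and 9730. The fitted log2 fold changes of these 3 were -0.95, -0.64 and -0.70 with edgeR adjusted p of 0.704, 0.744 and 0.746. atp1 (ATMG01190), the alpha subunit of the ATP synthase, had 91544 and 72295 mitochondrial CPM in the FLV border against 111735 and 114602 in the WT border. Over the class, 7 of 24 lay apart higher (29.2%, against 35.7% of the 140 mitochondrial loci and 6.12% of all genes on this scale). Another 11 lay apart lower (45.8%, against 17.1% of the mitochondrial loci and 48.9% of all genes).

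Among the unnamed reading frames, ATMG00030 had the most counts in the FLV border. It had 1072 and 1814 CPM in the FLV border, 192 and 389 CPM in the WT border and 1828 and 428 CPM in the WT centre, and its FLV border to WT border log2 fold change was 2.31 ± 0.83 (SE, edgeR adjusted p = 0.774). The FLV border libraries overlapped those of the WT centre, and the rRNA counts given above were also highest in the FLV border; their part in this value was not tested. ATMG00280 and ATMG00370 (ORF199) went the other way within mitochondrial counts. ATMG00280 had 9377 and 26317 mitochondrial CPM in the FLV border against 47640 and 71410 in the WT border, a log2 fold change of -1.74 ± 0.92 (SE, edgeR adjusted p = 0.691). ATMG00370, which the reference describes as like the plastid protein Ycf1, had 910 and 1164 mitochondrial CPM in the FLV border against 1961 and 1980 in the WT border, a log2 fold change of -0.93 ± 0.50 (SE, adjusted p = 0.691). rbcL itself had 26044 and 51475 CPM in the FLV border and 82001 and 115455 CPM in the WT border.

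Further reading frames of small p had both FLV border libraries higher. ATMG01280 (ORF291), 197 bases upstream of nad1a (ATMG01275) on the same strand and described as like cytochrome oxidase subunit II, had 188 and 221 CPM in the FLV border against 78.8 and 129 CPM in the WT border. ATMG00200 (ORF107B) had 18.8 and 15.1 CPM in the FLV border against 6.64 and 9.72 CPM in the WT border, and ATMG00490 38.7 and 31.0 CPM against 13.1 and 19.5 CPM. All 3 pairs were without overlap, with log2 fold changes of 0.98, 1.05 and 1.10 and edgeR adjusted p of 0.956, 0.878 and 0.927.

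Nuclear genes for the same machineries were set beside the mitochondrial ones. They came from a list of 39 respiratory subunits and a list of 12 factors of mitochondrial gene expression or cytochrome c maturation. The maturation genes on the second list are CCMA, CCME and CCMH. Of the 39 subunits, 16 had a positive FLV border to WT border log2 fold change and 0 were called, with a median of -0.07 against 0.56 for the mitochondrial respiratory models. Their summed level was 3153 and 2111 CPM in the FLV border and 3162 and 2596 CPM in the WT border. Of the 12 factors on the second list, 11 were positive with a median of 0.53 and 0 were called by edgeR. Among them, CCMA, CCME and CCMH had log2 fold changes of 0.17, 0.58 and 0.52. PMH2 (AT3G22330), a mitochondrial RNA helicase, had 13.0 and 23.5 CPM in the FLV border against 3.95 and 8.54 CPM in the WT border, a log2 fold change of 1.55 ± 0.54 (SE, adjusted p = 0.757).

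**Figure D3:**
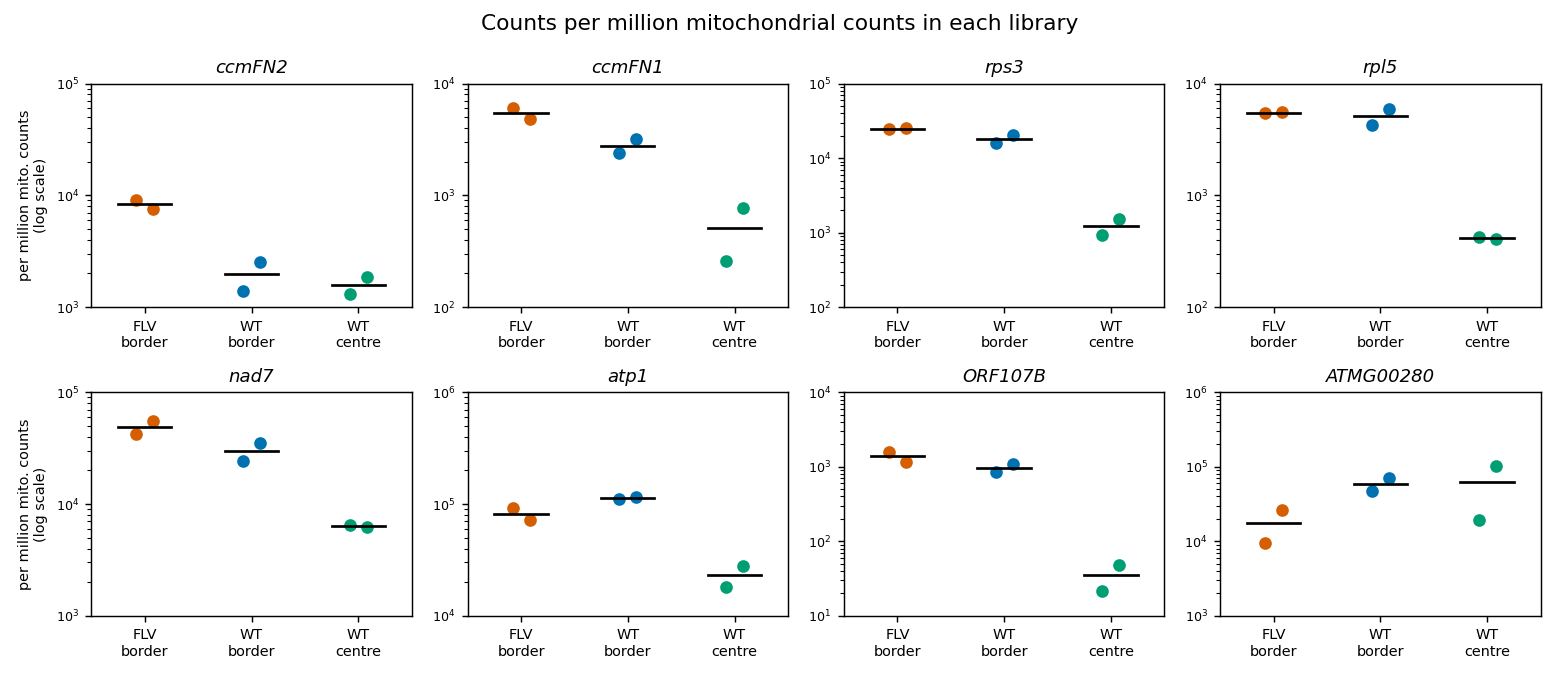
Mitochondrial CPM in each library (points, log scale) and group means (lines) for 8 loci. The FLV border libraries lie above both other groups for ccmFN2, ccmFN1, rps3, nad7 and ORF107B. WT centre lies below both borders for ccmFN1, rps3, rpl5, nad7, atp1 and ORF107B.

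Between the WT border and the WT centre the mitochondrial loci had fitted values of both signs. Scaled to all counts, 57 of 140 had a positive WT border to WT centre log2 fold change, with a median of -0.33 against -0.02 over all genes. The edgeR test called 7 loci, 6 higher and 1 lower in the WT border, which is 5% of those tested, against 6.13% of all genes, of which 3.13% were higher and 3% lower. Both WT border libraries lay above both WT centre libraries at 40 loci (28.6%, against 30.6% of all genes) and below at 47 (33.6%, against 27.2%). At an unadjusted p under 0.05, 18 loci were higher (12.9%, against 14.7%) and 33 lower (23.6%, against 15.2%). The medians were -1.05 over the respiratory models, 0.66 over the ribosomal protein genes, -0.73 over the cytochrome c maturation genes, -1.69 over the transfer RNAs and 0.61 over the reading frames. With library totals in place of TMM the median of all genes was 1.24, and the medians of the respiratory models and of the cytochrome c maturation genes turned positive, at 0.23 and 0.49. Without library 1 of the WT centre 8 loci were called, of which rps3, rpl5, ORF107B and ATMG00930 were among the 7, and without library 2 of the WT centre 38. Of all genes, 6.56% were called without library 1 and 13.9% without library 2. Without library 1 the medians were -0.55 over the respiratory models, 1.45 over the ribosomal protein genes, -0.49 over the cytochrome c maturation genes, -0.62 over the transfer RNAs and 1.06 over the reading frames. In the fit of the 4 WT libraries alone, 62 reading frames passed the filter on low counts, 33 of them positive, with a median of 0.07. In that fit 1 locus was called, with 1.70% of all genes called. The FLV border libraries share the estimate of spread in the main fit. Without any 1 of the 4 border libraries fewer loci were called, and a smaller share of all genes.

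Within mitochondrial counts 22 loci were called, all higher in the WT border. That is 15.7% of those tested, against 16.6% of all genes called higher and 17.6% called in either direction on this scale, 1.05% as lower. Both WT border libraries lay above both WT centre libraries at 69 loci (49.3%, against 53.6% of all genes) and below at 17 (12.1%, against 8.85%). At an unadjusted p under 0.05, 46 were higher (32.9%, against 34%) and 3 lower (2.14%, against 3.46%). The mitochondrial shares lay near those of all genes. The Benjamini-Hochberg adjustment ran over all genes tested, most of them nuclear and shifted upward by this scaling. The adjusted p of the mitochondrial loci on this scale therefore depend on those genes too. The called loci comprised 2 of 24 respiratory models, 3 of 7 ribosomal protein genes, 1 of 5 cytochrome c maturation genes and 16 of 82 reading frames. The class medians were 0.08 over respiratory models, 1.84 over ribosomal protein genes, 0.32 over cytochrome c maturation genes, -0.42 over transfer RNAs and 1.58 over reading frames, while all genes had a median of 1.004. Without library 1 of the WT centre the medians were -0.00, 1.98, 0.03, -0.07 and 1.59, and 19 loci were called, 12 of them among the 22, with 15.2% of all genes called. In the fit of the 4 WT libraries alone, 0 mitochondrial loci and 0% of all genes were called. Without any 1 of the 4 border libraries the calls were lost as well, of the mitochondrial loci and of all genes.

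**Figure D4:**
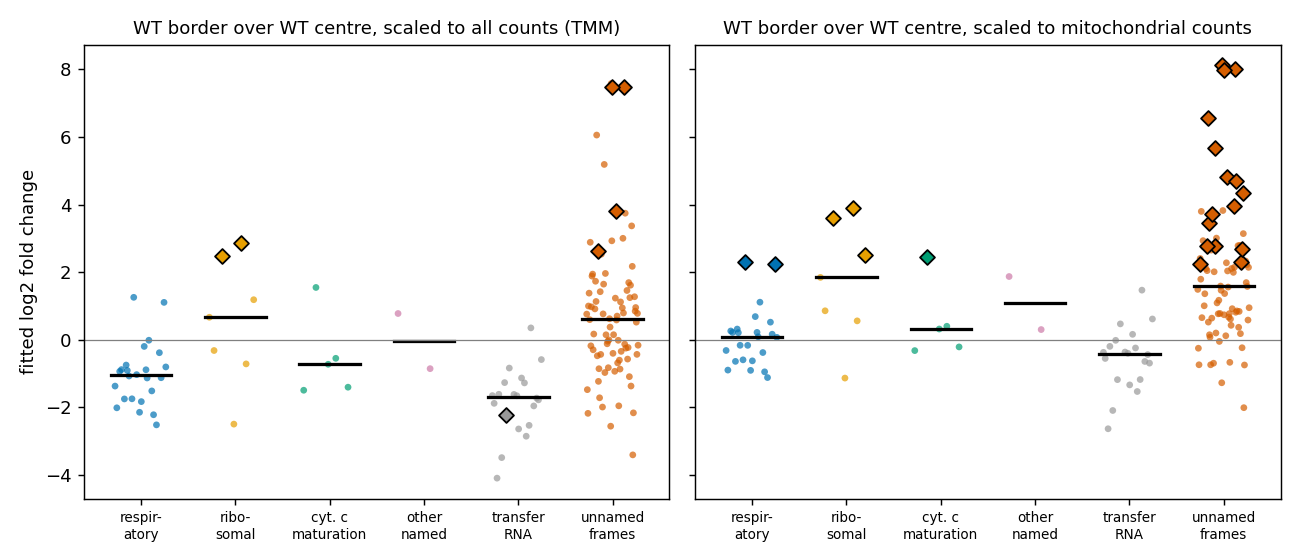
Fitted WT border to WT centre log2 fold change for the 140 tested mitochondrial loci by class, scaled to all counts (left) or to mitochondrial counts (right); black lines are class medians and diamonds the 7 and 22 called loci. Fitted values of the reading frames near the top belong to loci with 0 counts in the WT centre and depend on the prior count; respiratory models centre near 0 on the right.

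Ribosomal protein genes held the 2 called named genes on the scale of all counts. rps3 had 126 and 181 CPM in the WT border against 22.8 and 19.4 CPM in the WT centre, a log2 fold change of 2.86 ± 0.51 (SE, n = 2 each, edgeR adjusted p = 0.0303). rpl5 (ATMG00210; positions 184762 to 185319, minus strand) had 33.3 and 52.9 CPM in the WT border against 10.4 and 5.15 CPM in the WT centre, a log2 fold change of 2.48 ± 0.53 (SE, edgeR adjusted p = 0.0385). Both groups were apart for each gene. Within mitochondrial counts rps3 had 16000 and 20409 mitochondrial CPM in the WT border against 932 and 1532 in the WT centre, and rpl5 4235 and 5947 against 424 and 406. Both were called there with an adjusted p of 0.0242, as was rps4, with 1375 and 1952 mitochondrial CPM in the WT border against 431 and 152 in the WT centre (adjusted p = 0.0369). rpl16, beside rps3, had 7804 and 9933 against 2701 and 2241 and was not called (adjusted p = 0.0551).

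The remaining ribosomal protein genes were not called, and all but rpl2 went the same way within mitochondrial counts. rpl2 (ATMG00560) had 37323 and 30818 mitochondrial CPM in the WT border against 110987 and 38738 in the WT centre, where library 1 stood far above all others. Its log2 fold change was -1.14 on this scale, and -2.50 ± 0.82 scaled to all counts (SE, edgeR adjusted p = 0.0877), where it was -0.73 without library 1 of the WT centre. rps12 and rps7 had log2 fold changes within mitochondrial counts of 0.86 and 0.56, without overlap of the groups. Of the 7 genes, 6 had both WT border libraries above both WT centre libraries on this scale (85.7%, against 49.3% of the mitochondrial loci and 53.6% of all genes).

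Of the respiratory models, nad7 and atp1 were called within mitochondrial counts. nad7 had 24542 and 35558 mitochondrial CPM in the WT border against 6440 and 6258 in the WT centre, a log2 fold change of 2.24 ± 0.64 (SE, edgeR adjusted p = 0.0432). atp1 had 111735 and 114602 mitochondrial CPM in the WT border against 18126 and 27809 in the WT centre, a log2 fold change of 2.30 ± 0.69 (SE, adjusted p = 0.0494). Without library 1 of the WT centre nad7 was called (edgeR adjusted p = 0.0451) and atp1 was not (2.02, adjusted p = 0.0577). On the scale of all counts neither was called, and 22 of the 24 models had a negative fitted value, 17 of them with both WT border libraries below both WT centre libraries (70.8%, against 27.2% of all genes). Lowest in p on that side were nad4L (ATMG00650), with 47.2 and 70.7 CPM in the WT border against 305 and 172 CPM in the WT centre, and nad6 (ATMG00270), with 52.2 and 54.7 CPM against 352 and 122 CPM, both of the membrane arm of complex I (edgeR adjusted p = 0.0549 and 0.0638). Without library 1 of the WT centre their log2 fold changes were -1.49 and -1.13 in place of -2.02 and -2.15. atp9 had 62308 and 54039 mitochondrial CPM in the WT border against 100149 and 79328 in the WT centre. nad4 had 23556 and 25805 mitochondrial CPM in the WT border against 86353 and 20961 in the WT centre, and the WT centre libraries lay on either side of the WT border.

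Among the cytochrome c maturation genes ccmFN1 was called within mitochondrial counts, with 2390 and 3163 mitochondrial CPM in the WT border against 257 and 769 in the WT centre (log2 fold change 2.44 ± 0.68, SE, edgeR adjusted p = 0.0415). Without library 1 of the WT centre it was not called (1.85, adjusted p = 0.0542). ccmFN2, which stood out in the FLV border, had a log2 fold change of 0.32 ± 0.59 here (adjusted p = 0.726), and -0.73 ± 0.50 scaled to all counts (adjusted p = 0.341), with opposite signs on the 2 scales. ATMG00520, one of the other named genes, had 12653 and 14724 mitochondrial CPM in the WT border against 3368 and 4125 in the WT centre (adjusted p = 0.0545).

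Of the unnamed reading frames tested, 72 of 82 had a positive fitted value within mitochondrial counts. Some passed the filter on low counts only with the FLV border libraries in the fit, since 62 passed it in the WT libraries alone, so this count and the class median are no measure of the class. ORF107B (ATMG00200; positions 187004 to 187327, plus strand) was called on both scales. It had 232 and 280 counts in the WT border, or 844 and 1093 mitochondrial CPM, against 6 and 9 counts in the WT centre, or 21.8 and 48.7 mitochondrial CPM. The log2 fold change was 4.81 ± 0.68 within mitochondrial counts (SE, edgeR adjusted p = 0.0242) and 3.81 ± 0.53 scaled to all counts (adjusted p = 0.0262). It lies 1684 bases from rpl5 in the reference, on the opposite strand. ATMG00490 was also called on both scales (on all counts, edgeR adjusted p = 0.0506 without library 1 of the WT centre), with 1659 and 2198 mitochondrial CPM in the WT border against 61.6 and 298 in the WT centre. ATMG00500 (ORF141), 677 bases upstream of nad7 on the same strand, was called within mitochondrial counts with 793 and 992 mitochondrial CPM in the WT border against 145 and 222 in the WT centre. ORF294 (ATMG01200), 146 bases upstream of atp1 on the same strand, had 43060 and 42001 mitochondrial CPM in the WT border against 21632 and 16240 in the WT centre.

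Several called reading frames rest on few counts. ATMG01250 had 29 and 17 counts in the WT border and ATMG00760 35 and 12, and both had 0 in each WT centre library. Against a floor of 3 counts over the WT centre group, they were at least 6.22-fold and 6.35-fold higher in the WT border on the scale of all counts (edgeR adjusted p = 0.0411 and 0.0495), and at least 13.3-fold and 13.6-fold higher within mitochondrial counts. ORF143 (ATMG00120) had 44 and 7 counts in the WT border and 0 in each WT centre library, and was at least 14.7-fold higher within mitochondrial counts. ATMG00770 and ATMG00840, also at 0 in the WT centre, were at least 2.60-fold and 4.91-fold higher (edgeR adjusted p = 0.0495 and 0.0384). ORF143, ATMG00770 and ATMG00840 had too few WT counts to pass the filter on low counts without the FLV border libraries. Their calls are no result of the WT libraries alone, and the fit of the 4 WT libraries called 0 loci on this scale. The other called reading frames were ATMG00150, ATMG00300, ATMG00430, ATMG00710, ATMG00910, ATMG01050, ATMG01100 and ATMG01150, with 9 to 99 counts in a WT border library and 0 to 20 in a WT centre library. At least ATMG01100 of these, with 10 and 11 counts in the WT border, also passed the filter only with the FLV border libraries. Its call is likewise no result of the WT libraries alone. With the 5 reading frames at 0 in the WT centre at their bound, the class median was 1.57 in place of 1.58. The median reading frame had 189 and 141 mitochondrial CPM in the WT border and 61.6 and 43.3 in the WT centre, and 17 and 10 reading frames were at 0 counts in the WT centre libraries. The depth was 274874 and 256113 mitochondrial counts in the WT border and 275798 and 184727 in the WT centre.

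ATMG00360, the 111-base model, went the other way with 10179 and 8387 mitochondrial CPM in the WT border against 58760 and 16105 in the WT centre, a log2 fold change of -2.01 ± 0.75 (SE, edgeR adjusted p = 0.0874), and -0.79 without library 1 of the WT centre. ATMG01060, of 324 bases, had 6767 and 4303 mitochondrial CPM in the WT border against 16954 and 9825 in the WT centre. Transfer RNA models lay on the same side. Scaled to all counts, 19 of 20 were negative and 14 had both WT border libraries below both WT centre libraries (70%, against 27.2% of all genes). The single called transfer RNA model was ATMG00930, of 74 bases, with 6.82 and 7.64 CPM in the WT border against 38.1 and 29.9 CPM in the WT centre (log2 fold change -2.23 ± 0.46, SE, edgeR adjusted p = 0.0371). Within mitochondrial counts its log2 fold change was not called.

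Model length went along with these differences. Within mitochondrial counts the median WT border to WT centre log2 fold change was -0.40 for the 21 tested loci of up to 100 bases, 1.22 for 50 loci over 100 and up to 400 bases, 1.37 for 47 of up to 800 bases and 0.36 for 22 longer ones. In an added fit that removed each library's trend on model length over all genes, 5 of the 7 calls on the scale of all counts were kept, namely rps3, rpl5, ORF107B, ATMG00490 and ATMG01250. Of all genes, 1.90% were called in that fit, against 6.13% in the main fit. Within mitochondrial counts 1 of the 22 was kept, ORF107B, where the share of all genes called went from 17.6% to 0.0549%. The class medians there were 1.67 for the ribosomal protein genes and 1.54 for the reading frames. The transfer RNA median turned positive on both scales, at 0.39 and 0.55.

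**Figure D5:**
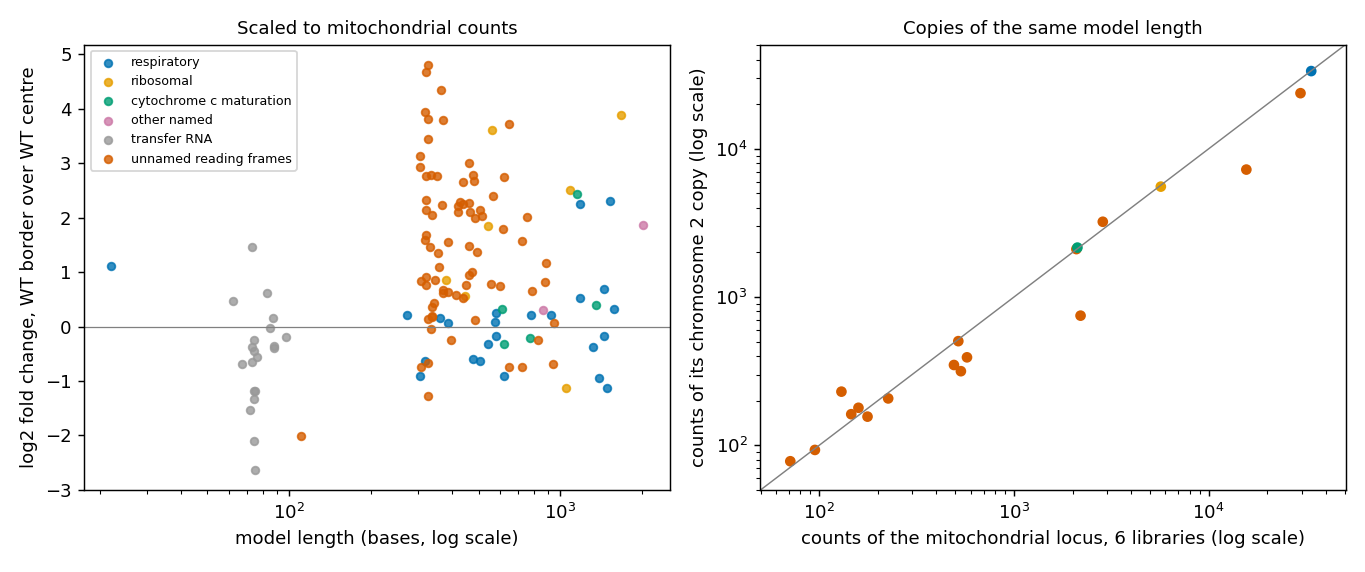
Left, WT border to WT centre log2 fold change within mitochondrial counts against model length (log scale), without the 5 loci at 0 counts in the WT centre; models of at most 100 bases centre below 0. Right, counts over the 6 libraries of mitochondrial loci and their chromosome 2 copies of the same length (log scales, line of equality), most of which lie close to the line.

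The nuclear genes of the same functions gave other values in this comparison. Of the 39 respiratory subunits 19 were positive, 0 were called by edgeR and the median was -0.08; 5 were higher and 4 lower at an unadjusted p under 0.05. All 12 factors of mitochondrial gene expression or cytochrome c maturation were positive with a median of 1.43. Of them 3 were called, where 3.13% of all genes were called higher. These were WHY2 (AT1G71260), a DNA-binding protein of mitochondria, with 15.9 and 12.8 CPM in the WT border against 1.95 and 1.17 CPM in the WT centre (log2 fold change 3.21 ± 0.50, SE, edgeR adjusted p = 0.0282), RPOTM (AT1G68990), the mitochondrial RNA polymerase, with 4.01 and 12.4 CPM against 0.976 and 1.03 CPM (adjusted p = 0.0471), and PNP (AT5G14580), a ribonuclease of mitochondria, with 3.84 and 17.9 CPM against 1.42 and 1.3 CPM (adjusted p = 0.0471). Epidermal and dividing cell markers moved in the same direction. PDF1 (AT2G42840) had 60.8 and 19.9 CPM in the WT border against 0.0887 and 0.480 CPM in the WT centre, and KNOLLE (AT1G08560) 13.3 and 5.80 CPM against 0.355 and 0.206 CPM (edgeR adjusted p = 0.0262 and 0.0282). Their part in the mitochondrial values was not tested.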

How the data were processed

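Per the labels, total RNA was extracted with TRIzol, depleted of rRNA with a Ribo-Zero plant leaf kit, and sequenced on an Ion Proton, stranded and from one end. The deposited values are raw counts of reads per gene model, written by sam2pkm per the file headers, with model lengths. The build is TAIR10 per the submitters' processing notes; the aligner, how multiply mapped reads were handled and whether strand was used are not given in the sources used here. Library totals ran from 20448315 to 33214552 counts.

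The 15 rRNA loci were left out. Genes were filtered with filterByExpr of edgeR 4.0.16, and glmQLFit (robust) and glmQLFTest were fitted to all 6 libraries with 1 mean per group, once with TMM scaling and once with the summed mitochondrial counts as library size on the same genes. The common biological coefficient of variation was 0.456 at 3 residual degrees of freedom. Benjamini-Hochberg adjustment ran over all 21852 genes tested. The members, classes and lists were chosen with earlier results of these data known. Loci were named by a rule: those called, those of smallest p per class with a mean of at least 5 CPM, and the 3 of each class with the most counts per kilobase. Not all of these are described, and others are named for their class, size or place, chosen after their values were seen. IDs were tied to names in TAIR10.1 by model length, gene name or the sequence of a chromosome 2 copy (blastn 2.17.0); the mitochondrial sequence of TAIR10.1 may differ from the one counted, so positions are those of TAIR10.1 and no sequence is printed. The script was tested on simulated data. Alternatives were other scalings, filters, DESeq2 1.42.0, other sets of libraries, the library number as a block and, chosen after seeing the data, an offset for model length, 3 reading frames left out and chromosome 2 copies added.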

Additional observations from a re-analysis of the deposited data

How the results depend on the processing

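In the FLV border against the WT border, 0 loci were called on either scale under every setting except DESeq2 on all counts, which called 1. In the WT border against the WT centre, the 7 calls on all counts became 35 with library totals and no TMM (35.7% of all genes called), 36 with DESeq2 (19.3%), 11 with no filter on low counts (6.17%), 1 with only the 4 WT libraries (1.70%), and 0 to 38 with a library left out; the 22 calls within mitochondrial counts became 0 with only the 4 WT libraries, 1 with the length trend removed (0.0549% of all genes called) and 0 to 55 with a library left out. The library numbers have no stated shared origin, and same-numbered libraries correlated in their deviations at 0.37 and 0.08 in the 2 comparisons. With the library number as a replicate block, 0 loci were called on either scale in the FLV border (0% of all genes). Between WT border and WT centre, 6 were then called on all counts (4.94% of all genes) and 9 within mitochondrial counts (10.7%).

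The log2 share of the mitochondrial loci stayed between 1.04 and 1.17 for FLV border over WT border with a library left out. For WT border over WT centre it was -0.24 without short nuclear and plastid models, -0.26 with chromosome 2 copies added, -1.15 with TMM, and -0.45 to 0.83 with a library left out. The log2 ratio of named genes to reading frames for FLV border over WT border was 0.11 without the 3 loci with the most counts in each class, 0.070 without the 3 reading frames with the most counts per kilobase, and -0.24 to -0.15 with a library left out. For WT border over WT centre it was -1.05 as a median of log2 shares, -0.066 without loci of at most 300 bases, -0.36 without those 3 reading frames, and -0.0037 to 0.23 with a library left out.

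Of 104 values of single loci, 11 settings changed a sign, none of them for a called value. Library totals gave 0.35 for ATMG00570 and 0.49 for ccmFN2 in the WT comparison on all counts. Within mitochondrial counts, removing the length trend gave -0.44 for ATMG00180 and -0.22 for ATMG00570 there. With a library left out, that comparison ran from -0.18 to 0.69 for ccmFN2, -0.088 to 1.13 for ATMG00180 and -1.81 to 0.24 for nad4, and FLV border over WT border ran from -0.092 to 0.15 for ATMG00570, -1.32 to 0.066 for ATMG01020 and -0.20 to 0.85 for rps12. Where no construction of a setting shows the cause, the cause was not tested. Low counts in the WT centre limit the precision of the reading frames.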
